A study of Mus musculus with 12 samples.

Results

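Transcripts of 9 enzyme subunits of the tricarboxylic acid cycle were examined in triceps brachii, which extends the elbow, of 12 male C57/BL6 mice. The 9 genes were taken by symbol (Cs, Idh3a, Idh3b, Idh3g, Ogdh, Dlst, Suclg1, Fh1 and Mdh2) from a table of 10187 genes, and each of them was found once. The mice formed 4 groups of 3 that crossed activity with genotype. Active mice were caged singly with a wheel for 12 weeks from 6 months of age, and inactive mice had no wheel. Before that all mice were housed in groups, so that single caging and the wheel cannot be told apart. The mice sampled from both genotypes had been matched for their running. Wild-type mice carried the normal Mstn gene, and in myostatin-reduced mice exon 3 of Mstn was floxed. All mice of both genotypes received chow with 0.025% tamoxifen for 6 weeks, which activates Cre recombinase. The promoter that drives Cre, and whether the wild-type mice carried Cre, are not given in the sources used here. The groups are named inactive wild-type (IW), active wild-type (AW), inactive myostatin-reduced (IM) and active myostatin-reduced (AM).

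The tricarboxylic acid cycle runs in the mitochondrial matrix, where acetyl units from carbohydrate, fat and amino acids are oxidised to carbon dioxide. The reduced cofactors that it yields feed the respiratory chain, so that muscles rich in mitochondria are also rich in its enzymes. Citrate synthase activity is widely used as a measure of mitochondrial content in muscle, and endurance training is known to raise it. Myostatin is a secreted inhibitor of muscle growth.

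The values were normalized read counts per gene, which the authors had scaled to an equal trimmed mean in all samples. Sums over a sample ranged from 927958 to 1080139, at an estimated 9023395 to 12184087 reads. The IM mice had the highest sums (1067399, 1056341 and 1080139), and AW mice 2 and 3 the lowest (936194 and 927958). Mstn itself averaged 116.3 ± 31.9 normalized reads in IW and 93.7 ± 15.1 in AW mice, and 19.0 ± 2.28 in IM and 12.8 ± 3.76 in AM mice (errors are SD, n = 3), with no overlap between the genotypes. Acta1, Ckm, Des and Ttn, which mark skeletal muscle, were abundant in every sample. The transcripts of the cycle were abundant. Their means over the 12 mice lay above those of 96.4% to 99.2% of the genes in the table, and each rested on an estimated 2487 reads or more in every mouse. All 9 passed the filter on low values, a mean of at least 10. Within a group the coefficient of variation of a gene was 1.97% to 11.8%, with a median of 5.67%. Nothing states that samples of a group came from separate litters or days, so p-values measure the spread between these mice. Each value comes from a piece of bulk muscle, in which more cells of a type and more RNA per cell cannot be told apart.

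The upstream sequences of the genes whose active and inactive mice did not overlap (Dlst, Suclg1 and Fh1), and 1 of the 6 windows listed for Ogdh, which holds a motif match, are shown from 250 bases before to 30 after the transcript start, 5′ to 3′ on the gene's strand (RefSeq, build GRCm38.p6). Capitals mark matches to the motifs searched. The windows were chr12:85110583-85110862 (Dlst, plus strand), chr6:73248255-73248534 (Suclg1, plus strand), chr1:175625606-175625885 (Fh1, minus strand) and chr11:6292308-6292587 (Ogdh, plus strand).
Dlst: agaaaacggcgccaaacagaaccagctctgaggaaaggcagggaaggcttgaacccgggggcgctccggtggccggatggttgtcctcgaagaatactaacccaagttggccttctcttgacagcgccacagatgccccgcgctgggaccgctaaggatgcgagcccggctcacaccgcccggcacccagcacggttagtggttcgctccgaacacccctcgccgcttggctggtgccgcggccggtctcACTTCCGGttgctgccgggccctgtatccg
Suclg1: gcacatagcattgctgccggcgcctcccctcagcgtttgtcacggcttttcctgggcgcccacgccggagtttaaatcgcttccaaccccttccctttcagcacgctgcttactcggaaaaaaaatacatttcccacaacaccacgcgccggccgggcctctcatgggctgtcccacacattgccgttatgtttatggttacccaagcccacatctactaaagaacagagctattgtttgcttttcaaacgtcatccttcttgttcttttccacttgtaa
Fh1: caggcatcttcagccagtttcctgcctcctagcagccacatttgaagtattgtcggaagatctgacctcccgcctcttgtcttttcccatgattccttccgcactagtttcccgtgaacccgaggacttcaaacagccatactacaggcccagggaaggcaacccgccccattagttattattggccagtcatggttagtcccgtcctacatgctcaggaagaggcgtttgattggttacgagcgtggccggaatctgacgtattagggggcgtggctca
Ogdh: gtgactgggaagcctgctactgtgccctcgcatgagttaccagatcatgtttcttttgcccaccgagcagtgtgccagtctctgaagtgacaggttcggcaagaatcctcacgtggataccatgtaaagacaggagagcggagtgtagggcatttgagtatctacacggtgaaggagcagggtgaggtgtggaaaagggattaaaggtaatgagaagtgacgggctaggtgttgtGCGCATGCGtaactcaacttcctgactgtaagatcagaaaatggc

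The motifs were those of regulators of mitochondrial genes, searched on both strands in windows from 250 bases before to 50 after each start. Windows were found for 8 of the 9 genes, and Idh3a had none. The estrogen-related receptor element TNAAGGTCA matched in 0 of the 8 genes, and in 1.43% of all 27025 genes with a window. The nuclear respiratory factor 1 motif GCGCATGCG matched in 1 of 8 (Ogdh, in windows of alternative starts that overlap) and in 1.95% of all genes. The GA-binding protein motif CCGGAAGT matched in 1 of 8 (Dlst, as ACTTCCGG on the opposite strand, at the transcript start) and in 4.31% of all genes. No motif overlapped another.

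Levels were compared between genes after division by the length of the longest coding transcript (GENCODE, build NCBIM37, which is mm9). Mdh2, the malate dehydrogenase of the last step of the cycle, had the highest level per length, at 571.7 ± 75.3 normalized reads per kilobase (SD over the 12 mice), and its lowest mouse was above the highest mouse of every other member. Citrate synthase (Cs), which joins acetyl-CoA to oxaloacetate, followed at 403 ± 30.4. The isocitrate dehydrogenase subunits stood at 333 ± 28.0 (Idh3a), 287 ± 39.7 (Idh3b) and 254 ± 33.7 (Idh3g). Ogdh was at 265 ± 32.6, Suclg1 at 202 ± 21.2, Dlst at 139 ± 23.3 and Fh1 at 112 ± 12.0 normalized reads per kilobase. Each gene was above the next in this order in all 12 mice, except that Idh3b exceeded Ogdh in 10 and Ogdh exceeded Idh3g in 8 of 12. The order of Ogdh and Idh3g was therefore not separated from the spread between mice.

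**Figure D1:**
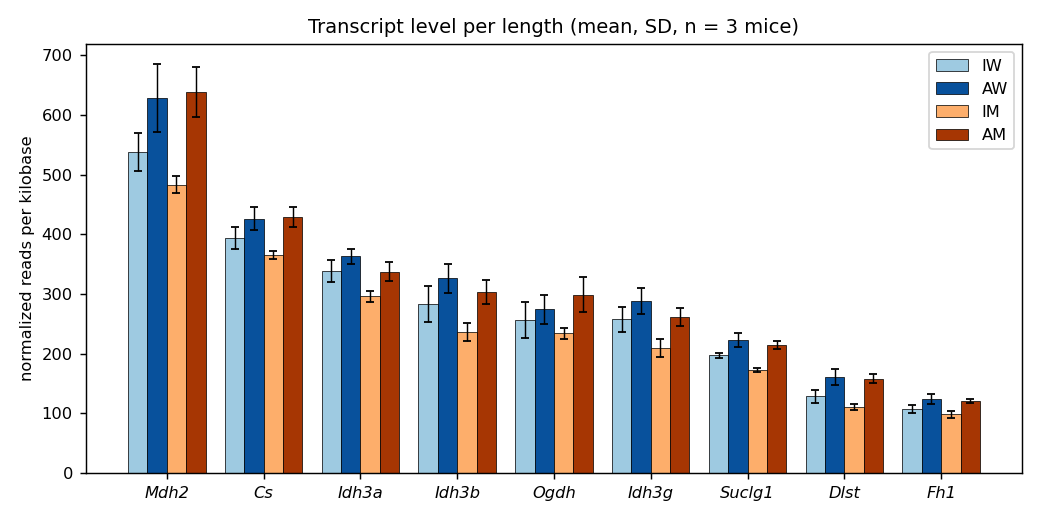
Normalized reads per kilobase of the longest coding transcript for the 9 cycle genes, in order of their mean over all mice. Bars give the mean and whiskers the SD of 3 mice in each group, and Mdh2 is highest and Fh1 lowest in all 4 groups.

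Comparison of active with inactive mice asked how the transcripts differed with wheel running, and the caging that went with it, over both genotypes. In active mice 7 of the 9 genes rose (limma, adjusted p under 0.05), namely Cs, Idh3b, Idh3g, Dlst, Suclg1, Fh1 and Mdh2, and 0 fell. Over all 7247 genes tested, 14.5% were called by this rule, 7.99% higher and 6.51% lower. All 9 genes had an unadjusted p under 0.05, as did 30.2% of all genes, and all 9 changes were above 0, as were 44.5% of all changes. The log2 changes of the 9 genes lay between 0.14 (Idh3a) and 0.42 (Dlst) with a median of 0.25, whereas the median of all genes was -0.022. Scaling to equal sums moved that median to 0.081 and the share of higher genes among those called from 55.1% to 90.4%, and the 9 genes stayed above 0 and were all called, as were 21% of all genes. Without that scaling, the changes of the 9 genes were increases of 10.6% to 33.4% on the linear scale. In that fit Idh3a and Ogdh had values on the same side and did not pass. For 3 of the 9 genes all 6 active mice were above all 6 inactive mice, a pattern found in 3.09% of the genes tested.

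**Figure D2:**
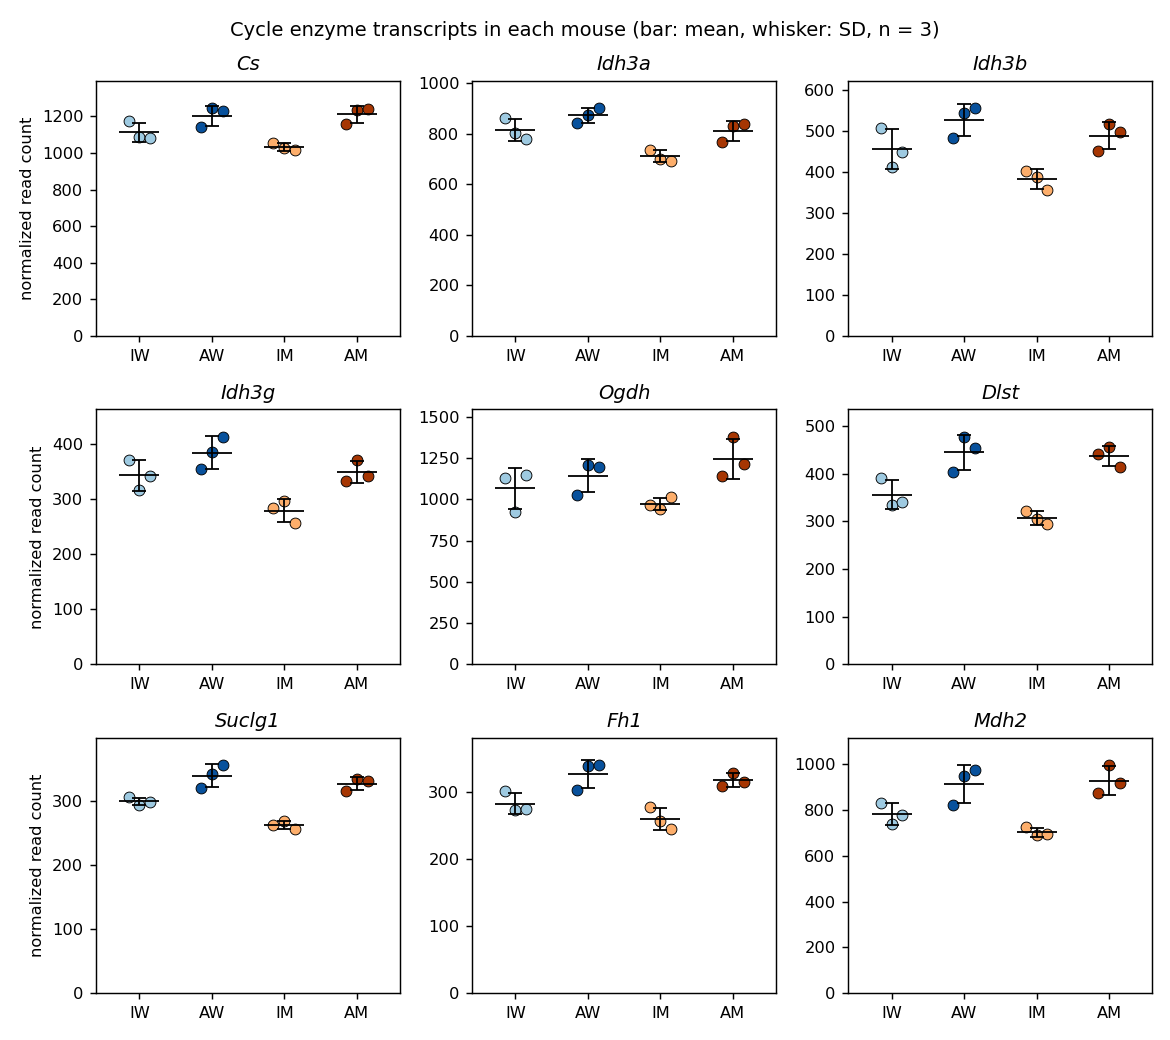
Normalized read counts of the 9 cycle genes in each mouse, with 3 points a group, a bar at the mean and whiskers for the SD. In every panel the AM points lie above the IM points, and in Dlst, Suclg1 and Fh1 all active mice lie above all inactive mice.

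Citrate synthase, encoded by Cs (chromosome 10, 127774888 to 127799535, plus strand, 11 exons; build NCBIM37), catalyses the entry step of the cycle. Its normalized reads in mice 1, 2 and 3 were 1174, 1086 and 1081 in IW, 1143, 1245 and 1228 in AW, 1055, 1026 and 1016 in IM and 1158, 1238 and 1240.0 in AM mice. The AM mice were above the IM mice, but IW mouse 1 was above AW mouse 1. The change with activity was 0.17 on the log2 scale (SE 0.046, limma adjusted p = 0.0278), 12.7% higher. This call was lost in 8 of 12 refits on 11 mice, where the adjusted p reached 0.0761. These were the refits without IW mouse 2 (0.0732) or 3 (0.0606), IM mouse 1 (0.0516), 2 (0.0625) or 3 (0.0656), AW mouse 2 (0.0761) or 3 (0.0759), and AM mouse 2 (0.0623).

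NAD-dependent isocitrate dehydrogenase oxidises isocitrate to 2-oxoglutarate, with Idh3a as the catalytic subunit and Idh3b and Idh3g as regulatory subunits. Idh3a (chromosome 9, 54434288 to 54452468, plus strand) was at 861, 802 and 777 in IW, 841, 874 and 899.8 in AW, 737, 702 and 693 in IM and 765, 829 and 837 in AM mice. Its activity change was 0.14 (SE 0.047, adjusted p = 0.0558). It was called without IW mouse 1 (adjusted p = 0.0393), AW mouse 1 (0.0408) or AM mouse 1 (0.0337). Idh3b (chromosome 2, 130105045 to 130110283, minus strand) was at 508, 412 and 449.5 in IW, 483, 543 and 556 in AW, 404, 388 and 356 in IM and 453, 518 and 498 in AM mice, and rose by 0.28 (SE 0.064, adjusted p = 0.0128). Idh3g (chromosome X, 71024302 to 71032236, minus strand) was at 371, 316 and 341 in IW, 354, 385 and 413 in AW, 283, 297 and 256 in IM and 332, 370.4 and 342 in AM mice, and rose by 0.24 (SE 0.059, adjusted p = 0.0188). The Idh3g call was lost without IW mouse 2 (adjusted p = 0.0537), IM mouse 3 (0.0508) or AW mouse 3 (0.0571). For each subunit the AM and IM mice were apart, and the IW and AW mice overlapped.

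The 2-oxoglutarate dehydrogenase complex, which yields succinyl-CoA, is built from Ogdh, the thiamine-dependent first component, and Dlst, the lipoyl-bearing second component. Dlst (chromosome 12, 86451783 to 86475041, plus strand) had the largest activity change of the 9 genes. Its values were 390.3, 335 and 341 in IW, 404, 477 and 453 in AW, 322, 304 and 294 in IM and 441, 456 and 414 in AM mice, so the lowest active mouse was above the highest inactive mouse. It rose by 0.42 (SE 0.057, adjusted p = 0.00179), or 33.4%. Ogdh (chromosome 11, 6191636 to 6256645, plus strand) was at 1129, 921 and 1147 in IW, 1027, 1207 and 1194 in AW, 964, 944 and 1014 in IM and 1138, 1378 and 1215 in AM mice. It varied more within IW mice than the other members, with a coefficient of variation of 11.8%, and its activity change was 0.23 (SE 0.072, adjusted p = 0.0536). It was called without AW mouse 1 (adjusted p = 0.0223) or AM mouse 1 (0.0337).

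Of the later steps, Suclg1 encodes the subunit that the ATP-forming and the GTP-forming succinyl-CoA ligases share. Suclg1 (chromosome 6, 73198376 to 73226905, plus strand) was at 306, 294 and 297 in IW, 319.8, 341 and 356 in AW, 262, 268 and 257 in IM and 315, 334 and 331 in AM mice. All active mice were above all inactive mice, and within IW mice the coefficient of variation was 1.97%. It rose by 0.25 (SE 0.042, adjusted p = 0.00298). Fumarase, encoded by Fh1 (chromosome 1, 177530505 to 177555766, minus strand), hydrates fumarate to malate. Its values were 300.4, 272 and 274 in IW, 303, 338 and 339 in AW, 276, 256 and 244 in IM and 309, 328 and 315 in AM mice, again with no overlap, although IW mouse 1 and AW mouse 1 lay close together. It rose by 0.25 (SE 0.050, adjusted p = 0.00726). Mdh2 (chromosome 5, 136254350 to 136266268, plus strand), which regenerates oxaloacetate, was at 831, 738 and 779 in IW, 820.1, 948 and 974 in AW, 726, 689 and 694 in IM and 874, 996 and 918 in AM mice. It rose by 0.31 (SE 0.057, adjusted p = 0.00467), and AW mouse 1 was below IW mouse 1. The calls of Idh3b, Dlst, Suclg1, Fh1 and Mdh2 held in all 12 fits that left out a mouse.

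The activity change was then taken within each genotype. Among myostatin-reduced mice (AM minus IM) 7 of 9 genes rose and 0 fell, where 7.84% of all genes were called, 5.31% higher and 2.53% lower. All 9 had an unadjusted p under 0.05, against 26.2% of all genes. The changes were 0.19 to 0.51, with the largest again in Dlst (0.51, SE 0.081, adjusted p = 0.00825) and then Mdh2 (0.40, SE 0.081, adjusted p = 0.0142). In all 9 genes every AM mouse was above every IM mouse, which held for 14.5% of the genes tested. The genes not called were Idh3a (adjusted p = 0.0958) and Ogdh (0.0559), and Cs passed narrowly (0.0499923). Same-numbered mice of these groups had deviations from their group means that correlated at 0.24, 0.17 and 0.32, and blocks by number were also fitted. These correlations were taken from the same data, and the labels state no pairing. With the number as a block in the fit of all mice, 5 genes rose, and 8.67% of all genes were called. With a block in the IM and AM mice alone, which was added after the data were seen, 7 rose, with Ogdh called (adjusted p = 0.0275) and Cs not (0.0741), and 14.9% of all genes were called. The count depended on single mice, as did the share of all genes called. It was 4 without IM mouse 1 (3.02% of all genes), 2 without IM mouse 2 (1.95%), 1 without IM mouse 3 (1.63%), 1 without AM mouse 2 (1.19%) and 3 without AM mouse 3 (5.52%), and 9 without AM mouse 1 (15.2%) and 8 without AW mouse 1 (10.7%). Dlst was called in each of these refits. With a slow-fibre value per mouse as a covariate, described further on, 3 genes rose (Dlst, Suclg1 and Mdh2) and 2.58% of all genes were called. Other markers moved in this contrast too. Of endothelial markers 3 of 5 were called higher (median log2 change 0.67), and of slow-fibre genes 1 of 11 (median 2.50). Of 12 fast-fibre genes 2 were called higher and 1 lower (median -0.21), and of 3 Schwann cell markers 0 (median 0.74). The part of endothelial, fast-fibre and Schwann cell markers in the result was not tested.

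Among wild-type mice (AW minus IW) 0 of 9 genes were called by limma, with 5 at an unadjusted p under 0.05. By the same test 2 of all 7247 genes (0.0276%) were called, and 14.7% had an unadjusted p under 0.05. All 9 log2 changes were above 0, from 0.10 (Idh3a) to 0.32 (Dlst, SE 0.081, adjusted p = 0.113). The AW mice were above the IW mice without overlap in Dlst, Suclg1 and Fh1, that is 3 of 9, against 9.09% of all genes. Without AW mouse 1, Dlst was called, with 2.73% of all genes. With array weights, which give less weight to mice that vary more, 4 of the 9 were called (Dlst, Suclg1, Fh1 and Mdh2), with 5.73% of all genes.

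**Figure D3:**
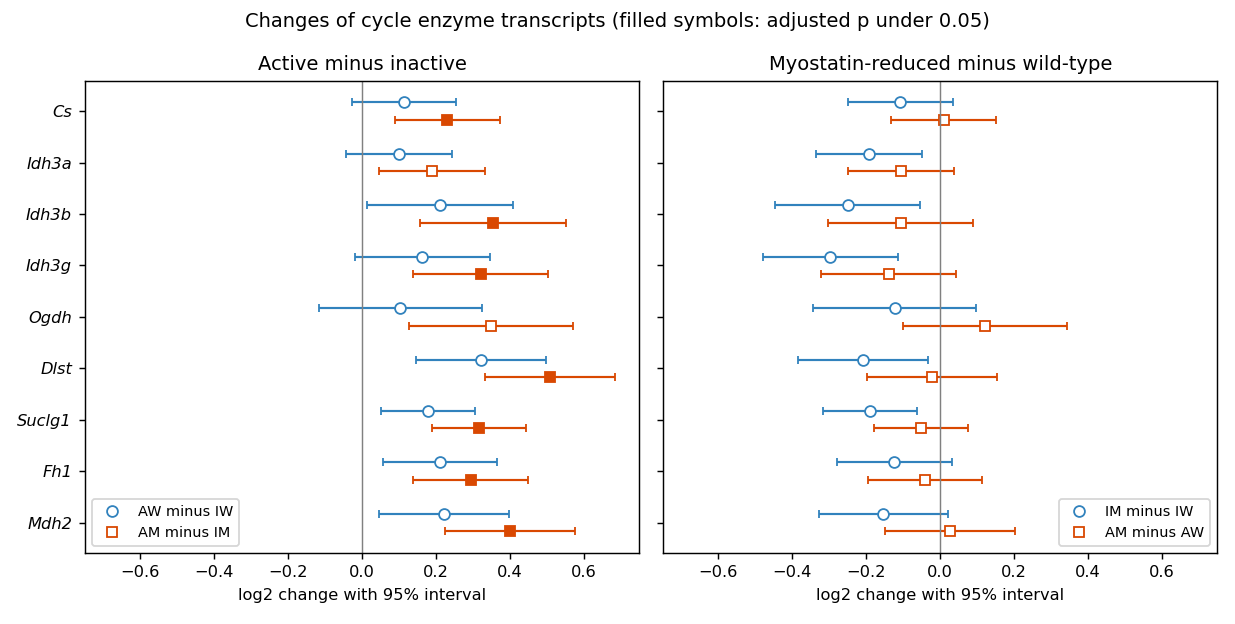
Log2 changes of the 9 cycle genes with 95% intervals from limma, with activity on the left (AW minus IW circles, AM minus IM squares) and genotype on the right (IM minus IW circles, AM minus AW squares). Filled symbols passed an adjusted p of 0.05, which 7 genes did in AM minus IM and 0 in the other contrasts shown.

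Whether the activity change differed between genotypes was tested as an interaction. None of the 9 genes was called (0 of 9, smallest adjusted p = 0.89), 0 had an unadjusted p under 0.05, and of all genes 0 were called, with 4.1% at an unadjusted p under 0.05. The activity change was larger in the myostatin-reduced genotype in all 9 genes, by 0.083 (Fh1) to 0.24 (Ogdh), and an interaction above 0 was found in 48.7% of all genes. The 95% interval of the Ogdh interaction ran from -0.068 to 0.56, and that of Fh1 from -0.14 to 0.30. A different response of the genotypes was not detectable with 3 mice a group, and these intervals hold differences of either sign.

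The genotype comparison asked whether reduced myostatin moved the same transcripts. None was called over both activity levels (0 of 9 by limma, 4 at an unadjusted p under 0.05), whereas 5.78% of all genes were called, 2.21% lower and 3.57% higher, and 22.5% had an unadjusted p under 0.05. All 9 changes were below 0, as were 51.7% of all changes, although Ogdh turned above 0 in 9 of the 20 alternative fits, with the slow-fibre covariate and in 8 refits without a mouse. In 0 of 9 genes were all 6 myostatin-reduced mice below all 6 wild-type mice, a pattern found in 1.15% of genes. The log2 changes lay between -0.22 (Idh3g, SE 0.059, adjusted p = 0.0512) and -0.0012 (Ogdh, adjusted p = 0.995), with a median of -0.12. Without IW mouse 2, AW mouse 1 or AM mouse 2, Idh3g was called as lower (limma adjusted p = 0.0428, 0.029 and 0.0421). In these refits 5.03%, 7.91% and 6.5% of all genes were called. Scaling of the samples to equal sums, which moved the median genotype change of all genes from -0.0049 to -0.065 and the share of higher genes among those called from 61.8% to 28.6%, called 3 of the 9 genes as lower, and 8.51% of all genes.

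Within inactive mice (IM minus IW) all 9 changes were below 0, from -0.30 (Idh3g) to -0.11 (Cs). None was called by limma (0 of 9, 5 at an unadjusted p under 0.05), against 2.51% of all genes called (1.13% lower, 1.38% higher) and 17.4% at an unadjusted p under 0.05 in either direction. The IM mice lay below the IW mice without overlap in 7 of the 9 genes, the exceptions being Ogdh and Fh1, and in 12.7% of all genes. Within active mice (AM minus AW) 6 changes were below and 3 above 0, from -0.14 (Idh3g) to 0.12 (Ogdh). Here 0 of 9 were called and 0 had an unadjusted p under 0.05, against 0.207% and 12.3% of all genes. Idh3a was the 1 gene whose AM mice were all below the AW mice, which was the case in 7.47% of all genes.

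The groups that differed in both factors were compared as well. In IM relative to AW mice 8 of 9 genes fell, where 18.7% of all genes were called, 9.15% lower and 9.52% higher. The changes of the 8 ran from -0.22 (Cs, adjusted p = 0.0335) to -0.53 (Dlst, adjusted p = 0.00183). Ogdh was at -0.23 (adjusted p = 0.143). With the slow-fibre covariate 3 genes fell (Idh3g, Dlst and Suclg1), and 4.66% of all genes were called. In the same contrast 3 of 11 slow-fibre genes were called lower (median -3.09), 3 of 5 endothelial markers lower (median -0.57) and 3 of 4 skeletal muscle markers higher (median 0.34). The part of the endothelial and skeletal muscle markers in the result was not tested. AM and IW mice differed in 0 of 9 genes by limma, with 4 at an unadjusted p under 0.05, against 2.97% of all genes called (1.23% higher, 1.74% lower) and 20.1% at an unadjusted p under 0.05, and 1 gene was called without AW mouse 1, with 4.25% of all genes. These contrasts share their mice with those above.

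Summed over the 9 genes, normalized reads were 5511 ± 348 in IW and 6155 ± 399 in AW mice, and 4909 ± 108 in IM and 6114 ± 332 in AM mice (errors are SD, n = 3), or 0.545%, 0.649%, 0.46% and 0.624% of each group's reads. The sums over all genes, by which these shares were divided, were highest in IM mice. IM mouse 3 had the lowest value of all 12 mice in 7 of the 9 genes, although its Ogdh value was the highest of the IM mice, and AW mouse 3 the highest in 5. AW mouse 1 was the lowest AW mouse in all 9 genes, AM mouse 1 the lowest AM mouse in 8, and IW mouse 1 the highest IW mouse in 8.

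The mean log2 deviation of the 9 genes from their own means over all mice was 0.062, -0.12 and -0.050 in IW mice 1, 2 and 3. It was 0.035, 0.19 and 0.21 in AW, -0.18, -0.22 and -0.26 in IM and 0.042, 0.18 and 0.11 in AM mice. Slow-fibre transcripts, read from 11 genes such as Myh7 and Tnnc1, varied far more. The same measure over these genes was 1.96, -1.96 and 0.086 in IW, -1.02, 2.33 and 2.49 in AW, -2.23, -1.39 and -1.79 in IM and 1.09, 2.06 and -1.63 in AM mice. IW mouse 1 and AW mice 2 and 3 were high, and AW mouse 1 low in their groups, in both measures. The measures parted in other mice. AM mouse 3 had a low slow-fibre value with a cycle value above 0, IM mouse 1 had the lowest slow-fibre value but the highest cycle value of its group, and AM mouse 1 had a high slow-fibre value with the lowest cycle value of its group. The summed normalized reads of the 11 slow-fibre genes ranged from 94.3 to 1370 in IW and 151 to 1831 in AW mice, and from 78.3 to 112 in IM and 117 to 1343 in AM mice.

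With the slow-fibre value as a covariate, 4 of 9 genes rose with activity (Dlst, Suclg1, Fh1 and Mdh2) while 5.53% of all genes were called. Cs, at 0.14 in place of 0.17 (adjusted p = 0.0934), Idh3b, at 0.21 in place of 0.28 (0.0746), and Idh3g, at 0.16 in place of 0.24 (0.105), were not called. The activity change of Dlst was then 0.33, and all 9 changes remained above 0. Among endothelial markers 3 of 5 also rose with activity, beside 7.99% of all genes, with log2 changes of 0.47 (Pecam1), 0.53 (Kdr) and 0.49 (Tek). Cdh5 was at 0.42 (adjusted p = 0.0831) and Vwf at -0.027 (0.921). The summed reads of the 5 ranged from 224 to 287 in IW and 221 to 379.7 in AW mice, and from 196 to 211 in IM and 252 to 416 in AM mice. The part of vessel content in the changes of the cycle genes was not tested.

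**Figure D4:**
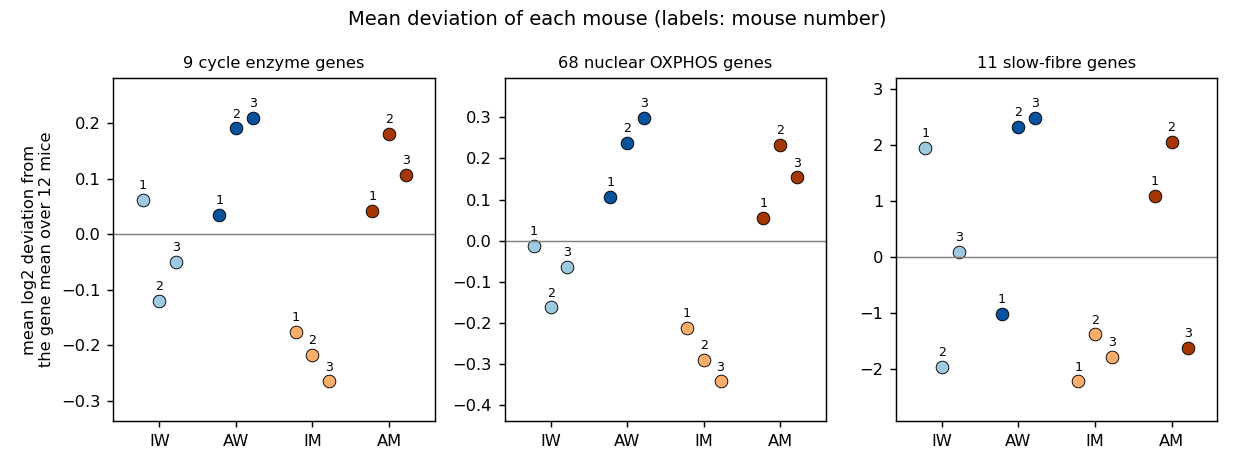
Mean log2 deviation of each mouse from the gene means over 12 mice, for the 9 cycle genes, 68 nuclear genes of oxidative phosphorylation (OXPHOS) and 11 slow-fibre genes, with points numbered by mouse. The vertical scales differ between panels: cycle genes span -0.26 to 0.21 and slow-fibre genes -2.23 to 2.49.

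Subunits of the same complex were compared by the log2 ratio of their reads in each mouse. The plain ratio of Idh3a to Idh3b reads was 1.79 ± 0.137 in IW and 1.66 ± 0.0749 in AW mice, and 1.86 ± 0.0770 in IM and 1.66 ± 0.0488 in AM mice (errors are SD, n = 3). Its log2 value differed by -0.14 between active and inactive mice (exact permutation test within genotypes, two-sided p = 0.015, adjusted p = 0.06 over 8 tests). The ratio of Ogdh to Dlst reads was 3.00 ± 0.320 in IW and 2.57 ± 0.0598 in AW mice, and 3.18 ± 0.239 in IM and 2.85 ± 0.232 in AM mice. Its log2 difference with activity was -0.19 (exact permutation test, two-sided p = 0.01, adjusted p = 0.06). The smallest p that the 400 arrangements allow is 0.005, and after adjustment no ratio passed 0.05. The ratio of the regulatory subunits Idh3b and Idh3g differed by 0.041 on the log2 scale with activity (exact permutation test, p = 0.15, adjusted p = 0.189) and by 0.039 with genotype (p = 0.165, adjusted p = 0.189).

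The remaining enzymes of the cycle were described from a list of 10 genes, of which 9 were tested and Ogdhl was below the filter. All 9 rose with activity, by 0.16 to 1.2 on the log2 scale with a median of 0.34, beside 7.99% of all genes. Idh2, the NADP-dependent mitochondrial isocitrate dehydrogenase, changed the most. Its normalized reads were 262, 107 and 158 in IW, 154, 421 and 384 in AW, 96.9, 111 and 72.4 in IM and 260.2, 361 and 222 in AM mice, a log2 change of 1.2 (SE 0.263, adjusted p = 0.0113). The groups overlapped among wild-type mice, and the spread within groups was far larger than that of Idh3a. Among succinate dehydrogenase subunits, which link the cycle to the respiratory chain, Sdhb rose by 0.65, Sdhd by 0.40, Sdhc by 0.34 and Sdha by 0.24. Dld, which reoxidises the lipoyl groups of the 2-oxoglutarate and pyruvate dehydrogenase complexes, rose by 0.35, Suclg2 by 0.28 and Sucla2 by 0.16. With genotype 0 of these 9 were called by limma, with 5 at an unadjusted p under 0.05, beside 5.78% and 22.5% of all genes.

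Of 10 genes of entry into the cycle and of anaplerosis, 8 were tested. Of these, 4 rose with activity, beside 7.99% of all genes, namely the pyruvate dehydrogenase subunits Pdha1, Pdhb, Dlat and Pdhx, by 0.26, 0.34, 0.36 and 0.38. Glud1, which forms 2-oxoglutarate from glutamate, was at 0.16 (adjusted p = 0.0553), Me3 at 0.095 (0.403) and the cytosolic malic enzyme Me1 at -0.28 (0.0748), and none of these passed. Pcx, the pyruvate carboxylase that refills oxaloacetate, was at -0.19 for activity (adjusted p = 0.199) and was higher in myostatin-reduced mice, by 0.39 (SE 0.096, adjusted p = 0.0353), the 1 genotype call among the 8, beside 5.78% of all genes. Its normalized reads were 103, 153 and 146 in IW, 134, 112 and 118 in AW, 179.5, 172 and 193 in IM and 159, 132 and 166 in AM mice. All IM mice were above all IW mice, and among active mice the groups overlapped. Of 4 cytosolic counterparts 1 rose with activity, beside 7.99% of all genes. This was Mdh1, by 0.85 (SE 0.109, adjusted p = 0.00129), whereas Aco1, Idh1 and Acly were at 0.14, 0.22 and 0.17 and were not called.

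Nuclear genes of oxidative phosphorylation were set beside the cycle genes. Of 68 tested, 66 rose with activity, beside 7.99% of all genes, with a median log2 change of 0.35, against 0.25 for the 9 cycle genes. With genotype 1 of the 68 was called lower, beside 2.21% of all genes, and the median was -0.14, against -0.12. Of the 68, 67 changes were below 0 and 46 had an unadjusted p under 0.05, beside 51.7% and 22.5% of all genes. The difference between the groups of genes was not tested. From 2547 further genes whose mean reached 50, the 5 whose log2 deviations were closest to the mean of the 9 genes over 12 mice included Ndufs3, Timm44, Uqcr10 and Cox6a2. Their root-mean-square differences from it were 0.041, 0.046, 0.047 and 0.049, against a median of 0.23 over the genes compared. The members themselves were between 0.033 (Fh1) and 0.093 (Ogdh) from their own mean, to which each contributed.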

How the data were processed

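PolyA RNA was read from 1 end, and the authors mapped the reads to mm9 with CASAVA (both named in the submitters' processing notes; version not given in the sources used here), counted those in RefSeq exons and added exons up to genes. The deposited values are a signal, a read count that the authors scaled so that trimmed means were equal in all samples. No division by length is described. Strand use was not stated, and reads shared with near-identical or overlapping genes could have been split.

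The spacing of low values gave the worth of a read, 0.077 to 0.105, so that a floor of 3 reads is 0.231 to 0.316 normalized reads and covers counting error only. Whole multiples of the step (within 0.0055) made up 88.8% to 91.2% of values under 5 but 68.0% to 69.4% of those from 20 to 50, so whole reads were not recovered and no count model was run.

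The 7247 genes with a mean of at least 10 entered limma 3.58.1 (R 4.3.3) as log2(value + 1), which understates changes of low genes. The fit had a mean per group over all 12 mice, eBayes with a trend, two-sided p-values and Benjamini-Hochberg adjustment over all genes tested; calls were made at 0.05. Ratios were tested by exact permutation of mice within levels of the other factor. Promoter sequences are RefSeq's (GRCm38.p6), and gene positions are from GENCODE on NCBIM37.

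All 9 members were named, with Mstn, called genes of the related lists and those of largest or smallest activity change, and the 5 genes most alike, of which 1 is not reported here. Genes that were not called were added where a list was described after its values were seen. Members and lists were chosen with earlier results of these data known. The labels do not say that mice with the same number share a litter or day. Deviations of same-numbered mice from their group means had correlations of -0.60 to 0.48 and were over 0.1 in 9 of 18 pairs, and in all 3 for IM with AM (0.24, 0.17 and 0.32).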

Additional observations from a re-analysis of the deposited data

How the results depend on the processing

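All 9 activity changes were above 0 in each of the 20 alternative fits (pseudocounts, filter, scalings, array weights, replicate block, slow-fibre covariate, and 12 without a mouse). The activity count was 5 to 9 when a mouse was left out and 4 with the slow-fibre covariate, while over all genes 1051 were called as reported, 1740 with array weights, 401 with the covariate and 552 to 1488 without a mouse (419 and 182 to 573 for genotype). For genotype the count was 3 with scaling to equal sums (8.51% of all genes called), 1 with array weights (8.39%) and 0 to 1 without a mouse. For AW minus IW it was 4 with array weights and 0 to 1 without a mouse. For AM minus IM it was 3 with the covariate and 1 to 9 without a mouse. For IM minus AW it was 3 with the covariate and 6 to 8 without a mouse, and for AM minus IW 2 with the covariate (5.91% of all genes called, against 2.97%) and 0 to 1 without a mouse. The genotype change of Ogdh, close to 0, was 0.0721 with the covariate and -0.052 to 0.0297 without a mouse. The cause of these differences was not tested. The other alternatives kept every count of the 9 genes within 1.5 times, and no ratio changed sign or passed 0.05. In the fit of all mice the replicate block gave 7 for activity, 0 for genotype and 5 for AM minus IM, and the block moved no count of the 9 genes by over 1.5 times. Over all genes the block moved IM minus IW from 182 to 98 called, AM minus AW from 15 to 9 and AW minus IW from 2 to 0, and equal sums moved AM minus IM from 568 to 877 and IM minus AW from 1353 to 2150. Array weights gave 415 for AW minus IW, 931 for AM minus IM, 334 for IM minus IW and 2449 for IM minus AW. The covariate gave 28 for AW minus IW, 187 for AM minus IM, 115 for IM minus IW, 29 for AM minus AW and 338 for IM minus AW. Without a mouse the share of all genes called was 0% to 2.73% for AW minus IW, 1.19% to 15.2% for AM minus IM, 0.317% to 2.98% for IM minus IW, 0.0552% to 0.248% for AM minus AW, 7.62% to 22.7% for IM minus AW and 0.813% to 4.25% for AM minus IW. The lowest of these for IM minus IW was without IW mouse 1, for AM minus AW and IM minus AW without AW mouse 3, and for AM minus IW without IW mouse 2.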

Other observations

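Markers of other tissues and cells were read from short lists. The skeletal muscle markers Acta1, Ckm, Des and Ttn summed to between 66945 and 90899 normalized reads in every mouse, with 0 of 4 called for activity. The 12 fast-fibre genes included 2 that rose with activity and 4 that fell, beside 7.99% and 6.51% of all genes. Among them Myh1 changed by 1.51 (SE 0.227, limma adjusted p = 0.0019) and Myh2 by 2.04 (SE 0.537, adjusted p = 0.0251), and Myh4, the fastest myosin heavy chain, by -0.57 (SE 0.128, adjusted p = 0.0127). Of the 11 slow-fibre genes 1 rose with activity (Casq2, 1.34, adjusted p = 0.00306), beside 7.99% of all genes. All 11 log2 changes were above 0, from 1.04 to 2.68 with a median of 1.80, and 5 had an unadjusted p under 0.05.

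Of the brown adipocyte markers Ucp1, Cidea and Elovl3, 0 of 3 were among the genes analysed here. Every gene in the table had a mean of at least 3 normalized reads in its highest group. Absence from it therefore does not show that a gene was silent. The 3 adipocyte markers in the table summed to 15.5 to 68.5 normalized reads, the 3 macrophage markers to 19.2 to 37.7, the 4 Schwann cell markers to 22.6 to 75.3 and the 1 red blood cell marker, Alas2, to 2.11 to 7.19. The 4 fibroblast markers summed to 370.4 to 581. None of the adipocyte, macrophage, Schwann cell or fibroblast markers that were tested was called for activity or genotype (0 of 9 by limma, with 2 fibroblast markers at an unadjusted p under 0.05 for activity). Over all genes 14.5% were called for activity and 5.78% for genotype, and 30.2% had an unadjusted p under 0.05 for activity.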
